A study of Homo sapiens with 8 samples.

Results

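Chromosome arms 1p and 11q hold genes that have been studied as suppressors of neuroblastoma, a childhood tumour of the sympathetic nervous system, because parts of both arms are often lost in it. The 8 genes examined here are CHD5, CAMTA1, KIF1B, CASZ1 and ARID1A of 1p, and CADM1, ATM and CHEK1 of 11q. The members are all probes annotated to these genes, 22 of the 50599 probes tested, with 15 probes for the 5 genes of 1p and 7 probes for the 3 genes of 11q. Probes were picked by gene name and not by a measured value, but the genes were chosen with earlier results of these data known.

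The arrays hold total RNA of NGP, an established human neuroblastoma cell line. The 4 arrays labelled CFC1 are of cells given CFC1 cDNA by lentivirus, and the 4 mock arrays are of cells given the mock construct by the same route. Both groups went through puromycin selection. CFC1 encodes a cell-surface protein that helps Nodal, a signal of early development, to act on its receptors. The labels number the samples 1 to 4 in each group and do not say whether they came from separate cultures, single clones or pools, so p-values rest on a spread among arrays that could be purely technical. The promoter that drives the cDNA is not given in the sources used here.

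Loss of 1p and loss of 11q mark largely different neuroblastomas, with 1p loss the more frequent partner of MYCN amplification. The genes act at different points of the cell. CHD5 and ARID1A belong to chromatin-remodelling complexes of the NuRD and SWI/SNF type, CASZ1 and CAMTA1 regulate transcription, and KIF1B is a kinesin motor of axonal transport. CADM1 joins neighbouring cells as an immunoglobulin-type adhesion molecule, while ATM and CHEK1 are kinases that halt the cell cycle after DNA damage or stalled replication.

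The profiles of the arrays lay far apart, and the labels could not be checked with the transduced gene. The single CFC1 probe ran from -0.69 to 0.06 in the arrays labelled CFC1 and from -0.03 to 1.10 in the mock arrays, so it was lower and not higher where the label names the gene (difference -0.80 on the log2 scale, adjusted p = 0.0398 in limma over genes). A probe outside the cDNA would check nothing, and its position was not determined. Directions therefore rest on the labels. Deposited values were read as log2, though their log base is not stated, and fold values rest on that reading. They are relative to an unstated baseline of each probe, so they give differences between arrays of 1 probe and no level of expression. The line's own markers could not be checked for presence for the same reason. Of 7 measured neuroblastoma markers, MYCN rose by 0.16 and 4 others were lower, with ISL1 at -2.18. Of 8 fibroblast and mesenchymal markers 6 were lower, of 3 Schwann markers 2, of 5 endothelial markers 2, and no marker of those cell types rose, where 29.7% of all genes rose and 28.2% fell. After quantile normalization 1 fibroblast marker rose and 5 fell. MYCN was not called there or with centred arrays. HAND2, 1 of the 4 lower neuroblastoma markers, lost its call after quantile normalization (-0.131, adjusted p = 0.125 in limma). The part of these markers in the differences below was not tested.

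Promoter sequences of RefSeq (GRCh38.p14) were given for 5 of the 8 genes. Those of CAMTA1, KIF1B and ARID1A are shown because these 3 genes of 1p fell. Each run covers the 250 bases before the first listed start on the plus strand, 5′ to 3′, at chr1:6785204-6785453 for CAMTA1, chr1:10210320-10210569 for KIF1B and chr1:26695765-26696014 for ARID1A. The capitals mark CCAAT or its reverse complement ATTGG, the box bound by the factor NF-Y.
CAMTA1: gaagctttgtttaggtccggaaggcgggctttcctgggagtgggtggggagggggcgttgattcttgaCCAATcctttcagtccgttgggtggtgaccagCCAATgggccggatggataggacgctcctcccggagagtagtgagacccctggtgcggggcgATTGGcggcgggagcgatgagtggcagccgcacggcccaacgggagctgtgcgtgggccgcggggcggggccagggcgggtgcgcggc
KIF1B: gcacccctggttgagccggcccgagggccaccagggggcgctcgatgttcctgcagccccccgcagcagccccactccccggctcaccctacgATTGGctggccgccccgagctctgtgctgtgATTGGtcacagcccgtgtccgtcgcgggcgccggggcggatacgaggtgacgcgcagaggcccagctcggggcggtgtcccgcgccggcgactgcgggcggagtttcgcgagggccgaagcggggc
ARID1A: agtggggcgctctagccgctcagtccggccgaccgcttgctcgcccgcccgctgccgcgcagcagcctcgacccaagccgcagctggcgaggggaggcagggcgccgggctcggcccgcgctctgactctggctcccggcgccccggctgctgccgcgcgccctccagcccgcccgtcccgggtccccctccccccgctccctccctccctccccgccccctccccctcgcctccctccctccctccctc
CAMTA1 held 3 CCAAT matches, KIF1B 2 and ARID1A 0, where 32.0% of the 35116 listed windows of this length held at least 1. The first listed CHEK1 start lies 1088 bases inside the annotated gene. The 250 bases before it held 1 match, shown with its surroundings at chr11:125626112-125626141 as the only sequence of a gene that was higher.
CHEK1: ctagcgcaggggATTGGagagactcctgcg
ATM also held 1 match. The E-box CACGTG, to which MYC family proteins bind, and the motifs TTTCCCGC and TTTGGCGC of the E2F type were searched on both strands in the same 5 windows and were in none. They occur in 6.34%, 1.39% and 0.55% of all windows. The motifs do not overlap each other. A match describes letters in a window, and its absence says nothing of a factor.

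Most probes of the 1p genes fell with the CFC1 label, and the probes of the 11q genes were mixed, with more rises than falls. Of the 15 probes of 1p, 10 fell, 1 rose and 4 did not pass the threshold of an adjusted p of 0.05 in limma. Most of the falling probes belong to KIF1B and CAMTA1, so probe counts are not counts of genes. With the probes of a gene averaged, 4 of the 5 genes of 1p fell and 1 rose. Of the 7 probes of 11q, 3 rose, 1 fell and 3 did not pass. Over all probes tested 42.1% passed, 20.01% higher and 22.1% lower, so calls as such are common in this comparison. The median difference was -0.55 for the 1p probes and 0.21 for the 11q probes, beside -0.135 for all probes. The groups did not overlap for 12 probes of 1p and 4 of 11q, against 42.6% of all probes. A difference of at least 1 log2 unit in size was seen for 3 probes of 1p and 1 of 11q, against 17.5% of all probes. In RNA of a whole culture, fewer cells of a kind and less RNA per cell cannot be told apart. Members are not replicates, so no p is given for one set against the other. After quantile normalization the 1p count was 7 called probes, 6 lower and 1 higher, with a median of -0.21. When the E1A control spots set the scale, the median difference of all probes was -0.0327, and after quantile normalization it was -0.0554, so the sign and call of the smallest differences depend on the scaling.

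**Figure D1:**
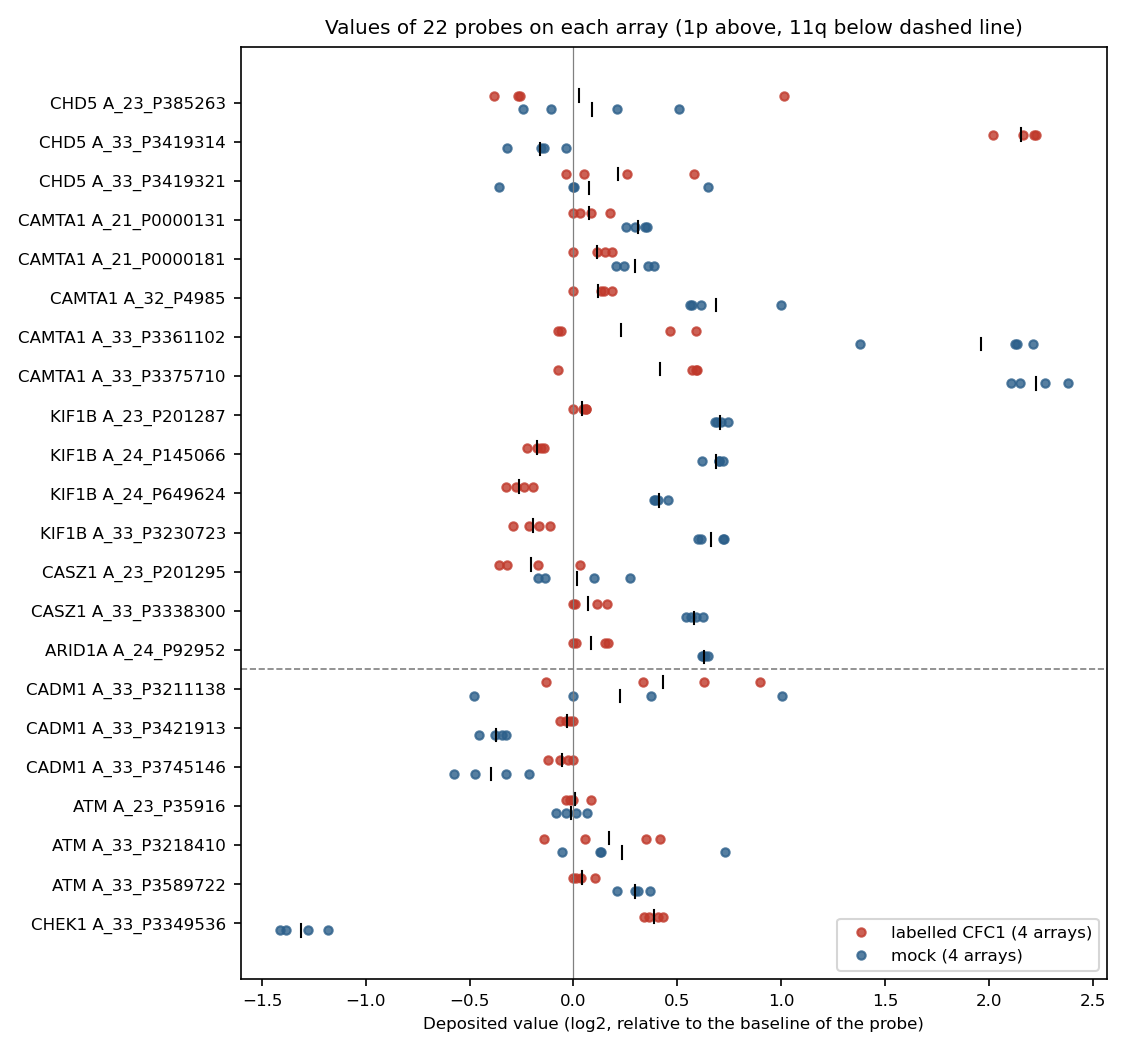
Deposited values, read as log2, of the 22 probes relative to each probe's baseline, with 1 point per array. The arrays labelled CFC1 are in red above the mock arrays in blue, with a black tick at each group mean. The groups lie apart for all 4 KIF1B probes and for CHEK1, and they overlap for 2 of the 3 CHD5 probes.

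Among the 1p genes, KIF1B fell most uniformly. KIF1B carries synaptic vesicle precursors and mitochondria along axons, and its beta isoform can promote the death of sympathetic precursor cells. The probe A_24_P145066 read -0.18, -0.16, -0.23 and -0.14 in the arrays labelled CFC1, against 0.70, 0.72, 0.62 and 0.70 in the mock arrays. A_33_P3230723 read -0.29, -0.12, -0.21 and -0.16 in the arrays labelled CFC1 and 0.72, 0.60, 0.61 and 0.72 in the mock arrays. In both, every array labelled CFC1 lay below every mock array, by differences of -0.86 (SE 0.0446, adjusted p = 2.43e-06 in limma) and -0.86 (SE 0.0579, adjusted p = 1.01e-05 in limma).

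The other KIF1B probes fell by 0.66 and 0.67. A_23_P201287 averaged 0.04 ± 0.03 in the arrays labelled CFC1 and 0.71 ± 0.03 in the mock arrays (SD, n = 4 each). A_24_P649624 averaged -0.26 ± 0.06 in the arrays labelled CFC1 and 0.41 ± 0.03 in the mock arrays (SD, n = 4 each). Their adjusted p-values in limma were 5.55e-06 and 1.11e-05. A_23_P201287 is annotated to another RefSeq transcript than the other 3 probes, but the smaller fall was shared by A_24_P649624, which is annotated to the same transcript as the pair with the larger fall. All 4 probes kept their call under every alternative run, and after quantile normalization A_23_P201287 stood at -0.35.

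CAMTA1, a calmodulin-binding transcription activator, had the largest falls of the set and the widest range among its called probes of like direction. A_33_P3375710 read 0.57, 0.59, 0.59 and -0.07 in the arrays labelled CFC1 and 2.10, 2.38, 2.15 and 2.27 in the mock arrays. The groups lay over 1 log2 unit apart, and replicate 4 of the arrays labelled CFC1 stood below its group. The difference was -1.81 (SE 0.164, adjusted p = 5.51e-05 in limma), a 3.50-fold lower signal. A_33_P3361102 read 0.47, -0.06, 0.59 and -0.07 in the arrays labelled CFC1 and 2.13, 2.21, 1.38 and 2.13 in the mock arrays. Here mock replicate 3 stood below its group without reaching the other, and the difference was -1.73 (SE 0.241, adjusted p = 0.000613 in limma).

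The remaining CAMTA1 probes differed far less. A_32_P4985 fell by 0.57 (SE 0.108, adjusted p = 0.0034 in limma), with 0.12 ± 0.08 in the arrays labelled CFC1 and 0.69 ± 0.21 in the mock arrays (SD, n = 4 each). A_21_P0000131 averaged 0.07 ± 0.08 in the arrays labelled CFC1 and 0.31 ± 0.05 in the mock arrays (SD, n = 4 each). Its difference of -0.24 passed (adjusted p = 0.00873 in limma), but the call was lost with arrays centred on their medians (-0.197) or set to the E1A control spots (-0.137), and after quantile normalization the value was 0.009. A_21_P0000181 differed by -0.19 and did not pass (adjusted p = 0.056 in limma), although its groups did not overlap. A_32_P4985 and A_33_P3361102 are annotated to the same transcript, so the annotation does not sort large from small falls.

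CASZ1, a zinc finger transcription factor of neural and cardiac development, fell on 1 of its 2 probes. A_33_P3338300 read 0.00, 0.16, 0.11 and 0.01 in the arrays labelled CFC1, against 0.54, 0.59, 0.62 and 0.56 in the mock arrays. The groups did not overlap, and the difference was -0.51 (SE 0.0536, adjusted p = 0.000125 in limma). A_23_P201295 overlapped between the groups and differed by -0.22 (95% interval -0.53 to 0.08, adjusted p = 0.242 in limma). The probes belong to different transcripts, and the gap of 0.29 between their differences had an exact permutation p of 0.086 (two-sided).

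ARID1A, which binds DNA as part of the SWI/SNF remodeller, had 1 probe. It read 0.00, 0.01, 0.15 and 0.17 in the arrays labelled CFC1 and 0.65, 0.62, 0.62 and 0.63 in the mock arrays. The mock arrays were nearly identical, the arrays labelled CFC1 spread more, and the groups did not overlap. The difference was -0.55 (SE 0.0542, adjusted p = 8.95e-05 in limma). After quantile normalization the calls of CASZ1 (-0.216, adjusted p = 0.0666 in limma), ARID1A (-0.21, adjusted p = 0.12 in limma) and CAMTA1 A_32_P4985 (-0.206, adjusted p = 0.219 in limma) were lost.

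CHD5, a helicase of neuron-specific NuRD-type complexes, gave the 1 rise among the 1p probes and did so on 1 of its 3 probes. A_33_P3419314 read 2.23, 2.02, 2.17 and 2.22 in the arrays labelled CFC1 and -0.32, -0.15, -0.04 and -0.14 in the mock arrays. All 4 arrays labelled CFC1 lay far above all 4 mock arrays, with a difference of 2.32 (SE 0.0777, adjusted p = 2.46e-07 in limma). A_23_P385263 read -0.26, -0.38, -0.27 and 1.02 in the arrays labelled CFC1 and 0.51, -0.24, -0.11 and 0.21 in the mock arrays. There the groups overlapped, with a difference of -0.06 (95% interval -0.86 to 0.73, adjusted p = 0.895 in limma). A_33_P3419321 also overlapped and differed by 0.14 (95% interval -0.40 to 0.68, adjusted p = 0.653 in limma).

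The 3 CHD5 probes are annotated to the same transcript, so the mean over them, 0.80 (SE 0.137, adjusted p = 0.00133 in limma over genes), describes none of them. The upper bounds of the intervals of the other probes, 0.73 and 0.68, lie below the interval of A_33_P3419314, which runs from 2.14 to 2.50. Relative to its baseline, this was also the only member probe with a mean above 1 in the arrays labelled CFC1 (2.16 ± 0.09, against -0.16 ± 0.12 in the mock arrays; SD, n = 4 each). The remaining probes had CFC1 means from -0.26 to 0.43. Since the baseline is unstated, the difference of a probe does not show which group moved, for A_33_P3419314 as for the others.

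**Figure D2:**
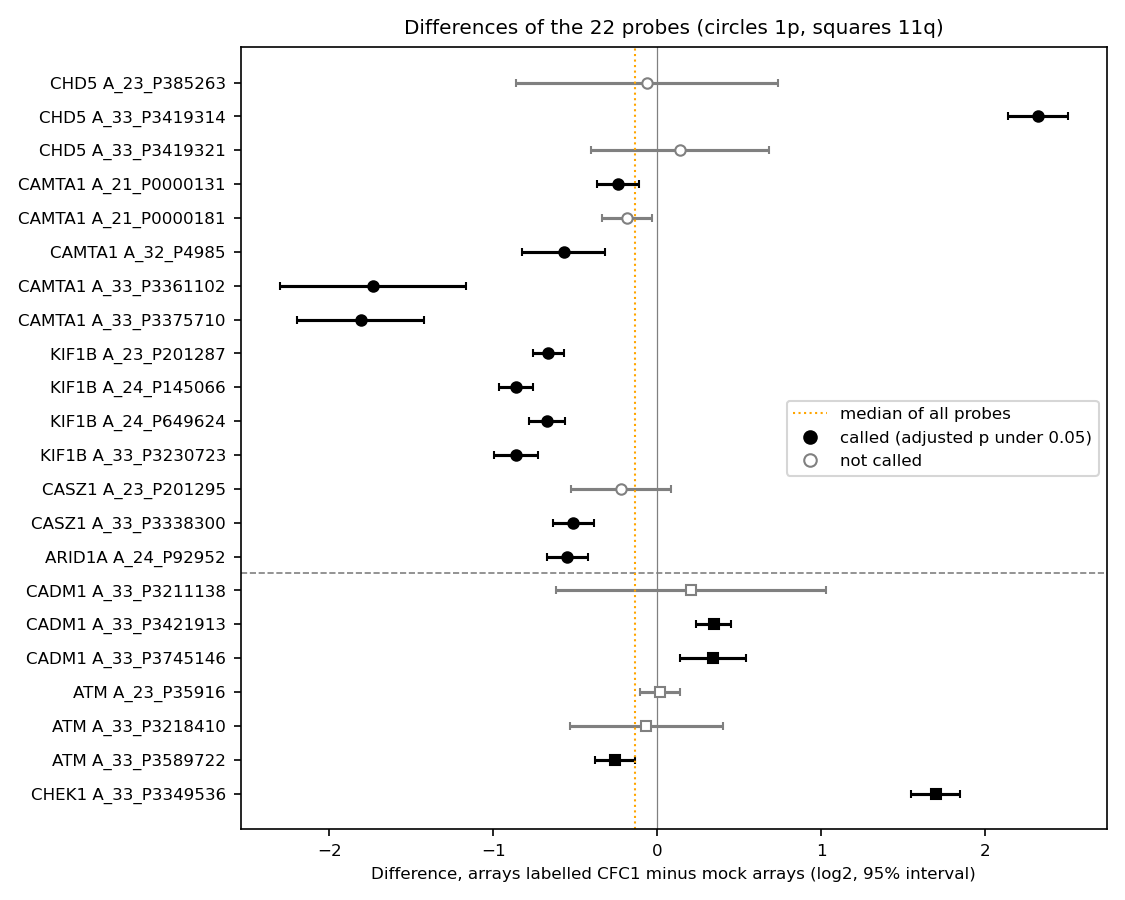
Differences of the 22 probes on the log2 scale, arrays labelled CFC1 minus mock arrays, with 95% intervals from limma, circles for 1p genes and squares for 11q genes, filled where called. The differences run from -1.81 (CAMTA1) to 2.32 (CHD5), and the dotted line marks the median of all probes, -0.135.

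The disagreement between probes of a gene was tested on the per-array differences of each of the 26 probe pairs. With 4 arrays a group the exact permutation test has 70 arrangements and a smallest two-sided p of 0.029. Of the 26 pairs, 15 reached that p, with a Benjamini-Hochberg adjusted p of 0.0495. The 2 pairs that set the risen CHD5 probe against the others were among them, with gaps of 2.38 and 2.18 in size. So were 8 of the 10 CAMTA1 pairs with gaps from 0.331 to 1.623 in size, and 4 of the 6 KIF1B pairs, with gaps of at most 0.197. The adjusted value sits at the edge of what the design allows, since no pair passes unless at least 15 of the 26 reach the smallest p. After quantile normalization no pair passed, so fewer than 15 reached it, which does not show that the gaps closed. There the risen CHD5 probe still differed by 2.769, against 0.161 and 0.313 for the others. With 1 array left out the smallest two-sided p is 0.057, so no pair could pass. Probe pairs of other genes were not tested, so it is not known whether such gaps are more common in these genes.

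Among the 11q genes CHEK1 changed most. CHEK1 is the effector kinase of the ATR branch, which restrains entry into mitosis while replication is incomplete. Its probe read 0.34, 0.36, 0.43 and 0.41 in the arrays labelled CFC1, against -1.18, -1.41, -1.38 and -1.28 in the mock arrays. The groups lay far apart. The difference was 1.70 (SE 0.0632, adjusted p = 4.23e-07 in limma), a 3.25-fold higher signal, and it ran from 1.667 to 1.802 over the other settings on the log2 scale and the arrays left out.

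CADM1 rose slightly on 2 of its 3 probes. A_33_P3421913 read -0.04, 0.00, -0.06 and -0.02 in the arrays labelled CFC1 and -0.38, -0.45, -0.33 and -0.34 in the mock arrays. Each array labelled CFC1 lay above each mock array, with a difference of 0.35 (SE 0.0462, adjusted p = 0.000486 in limma). A_33_P3745146 differed by 0.34 (SE 0.0850, adjusted p = 0.013 in limma), also without overlap. The third probe, A_33_P3211138, spread from -0.13 to 0.90 in the arrays labelled CFC1 and from -0.48 to 1.005 in the mock arrays. Its difference of 0.21 did not pass (95% interval -0.62 to 1.03, adjusted p = 0.661 in limma). The mean of the 3 probes was 0.30 higher (adjusted p = 0.0336 in limma over genes). Leaving out any array other than mock replicate 2 or CFC1 replicate 2 ended that call, with values from 0.241 to 0.31.

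ATM, the kinase that answers DNA double-strand breaks, showed little difference. A_23_P35916 read -0.04, 0.00, -0.02 and 0.08 in the arrays labelled CFC1 and 0.06, 0.01, -0.08 and -0.03 in the mock arrays. The groups overlapped, and the difference of 0.02 had a 95% interval from -0.10 to 0.14. A_33_P3218410 differed by -0.07 (95% interval -0.53 to 0.40), with wide spread in both groups. A_33_P3589722 read 0.11, 0.00, 0.01 and 0.04 in the arrays labelled CFC1 and 0.30, 0.37, 0.31 and 0.21 in the mock arrays. It passed at -0.26 (SE 0.0512, adjusted p = 0.0043 in limma), and the call was lost with arrays centred on their medians (-0.215), set to the E1A control spots (-0.155) or quantile normalized (-0.023). A_23_P35916 and A_33_P3589722 are annotated to the same transcript, and the gap between their differences was 0.28 (exact permutation p = 0.029, adjusted p = 0.0495).

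With the probes of a gene averaged, the order of the differences was CHEK1 (1.70), CHD5 (0.80), CADM1 (0.30), ATM (-0.10), CASZ1 (-0.37), ARID1A (-0.55), KIF1B (-0.77) and CAMTA1 (-0.91). The 95% intervals of neighbours in this order overlapped for CHD5 and CADM1 (0.48 to 1.12 and 0.07 to 0.53), ATM and CASZ1 (-0.27 to 0.06 and -0.54 to -0.19), CASZ1 and ARID1A (-0.54 to -0.19 and -0.66 to -0.43), and KIF1B and CAMTA1 (-0.84 to -0.69 and -1.08 to -0.73). They did not overlap for the other neighbours. Of the 8 genes, 3 rose, 4 fell and ATM did not pass, where 57.9% of all 21524 genes passed. The groups did not overlap for 6 of these gene means, all but CADM1 and ATM, against 56.5% of all genes. CHEK1 was the 1 member with a gene difference of at least 1 log2 unit, against 19.6% of all genes.

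The genes around the members were counted in each arm. Genes were placed in RefSeq order, and the 20 tested genes on either side of each member were taken as its neighbours. The windows of CHD5, CAMTA1, KIF1B and CASZ1 share genes (KIF1B and CASZ1 have 35 in common, CHD5 and CAMTA1 22), and those of ARID1A and of the 11q genes share none. Of the 129 distinct neighbours of the 1p members, 26 rose, 55 fell and 48 did not pass, with a median difference of -0.20. Of the 120 neighbours of the 11q members, 67 rose, 5 fell and 48 did not pass, with a median of 0.52. Over all genes 29.7% rose and 28.2% fell, and the median was -0.09. DNA copy number was not measured, and its part was not tested.

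Around each of the 3 members of 11q more neighbours rose than fell, also after quantile normalization, with centred arrays and with the E1A spots. CHEK1 had 25 neighbours higher and 2 lower (median 0.83), ATM 22 and 1 (0.44), and CADM1 20 and 2 (0.45). After quantile normalization 69 of the 120 neighbours rose and 3 fell, with centred arrays 65 and 5, and when the E1A spots set the scale 68 and 5. Of the 1p neighbours 30 rose and 40 fell after quantile normalization, 25 and 48 with centred arrays, and 29 and 49 with the E1A spots. Falls outnumbered rises by least under quantile normalization, but the shares of all genes moved too. In the values as deposited 42.6% of the 1p neighbours fell and 20.2% rose, against 28.2% and 29.7% of all genes. Quantile normalization gave 31.0% and 23.3%, against 20.1% and 30.9% of all genes. Around CAMTA1 the split turned there, with 12 higher and 9 lower, against 10 and 14 in the values as deposited.

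CHEK1 lay within a run of genes that rose with it. The genes just before it, EI24 and STT3A, a subunit of the oligosaccharyltransferase, rose by 1.19 and 0.97, and the gene just after, ACRV1, an acrosomal protein, by 1.65 (adjusted p from 5.36e-08 to 3.54e-05 in limma over genes). PATE1, the gene after ACRV1, differed by -0.28 and did not pass. CHEK1 ranked 32nd from the lowest among its window of 41 genes.

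ATM did not pass, while genes on both sides of it rose. ACAT1, a mitochondrial thiolase, and NPAT, which shares a bidirectional promoter region with ATM, rose by 0.95 and 0.37. C11orf65 and POGLUT3 on the other side rose by 0.77 and 4.08 (adjusted p from 2.53e-07 to 0.0057 in limma over genes for the 4). ATM ranked 10th from the lowest of its window. CADM1 stood close to its surroundings at rank 17. Of its adjacent genes, BUD13, a splicing factor, rose by 0.74, while NXPE1 (-0.20), NXPE4 (0.55) and LINC00900 (-0.16) did not pass.

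On 1p, CHD5 stood near the top of its window at rank 39, by the mean of its probes. KCNAB2, a potassium channel subunit that lies just before it, fell by 1.34, and RPL22, a ribosomal protein gene just after it, fell by 0.91 (adjusted p = 0.00084 and 1.87e-07 in limma over genes). NPHP4 (-0.20) and RNF207 (0.10) did not pass. Around CAMTA1, THAP3 and the vesicle protein gene VAMP3 fell by 0.25 and 0.44, DNAJC11 (0.05) did not pass, and the circadian gene PER3 rose by 3.74 (adjusted p = 3.53e-07 in limma over genes). After quantile normalization THAP3 stood at 0.004 and DNAJC11 passed at 0.282 (adjusted p = 0.022 in limma). CAMTA1 and KIF1B each ranked 8th from the lowest.

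KIF1B and CASZ1 lie close together, and the genes between and beside them mostly fell. UBE4B, a ubiquitin ligase, fell by 0.51, PGD of the pentose phosphate pathway by 0.28, DFFA, an inhibitor of the apoptotic nuclease, by 0.49, PEX14, a peroxisomal import factor, by 0.60, and TARDBP, an RNA-binding protein, by 0.67. CENPS, a centromere protein, rose by 0.19, and RBP7 (0.43) and CIROZ (0.30) did not pass. DFFA lost its call after quantile normalization (-0.192, adjusted p = 0.0655 in limma), and CENPS with centred arrays (0.231, adjusted p = 0.0532 in limma). CASZ1 ranked 22nd, in the middle of its window, whose median was -0.48. Next to ARID1A, PIGV, an enzyme of GPI anchor synthesis, fell by 0.64, whereas HMGN2, RPS6KA1 and ZDHHC18 rose by 0.16, 0.34 and 0.53. ARID1A ranked 10th, and its window held 11 rises and 10 falls.

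**Figure D3:**
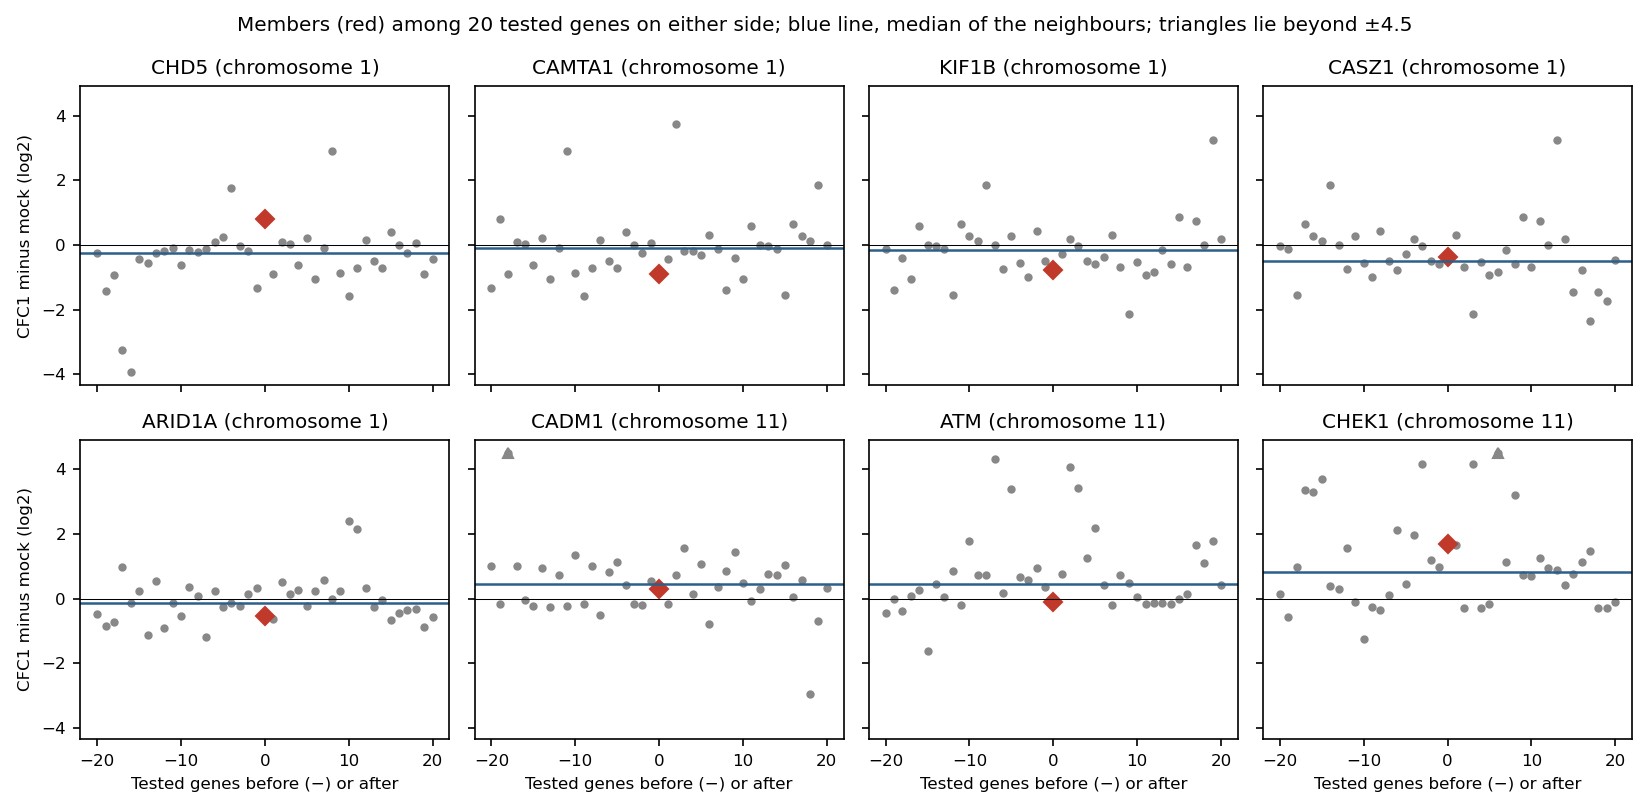
Differences (log2, arrays labelled CFC1 minus mock arrays, mean of the probes of a gene) of each member in red and of the 20 tested genes before and after it in grey, by number of genes from the member, with the neighbours' median as a blue line and triangles for genes beyond the drawn range. The medians are -0.24, -0.10, -0.14, -0.48 and -0.13 in the 1p windows and 0.45, 0.44 and 0.83 in those of CADM1, ATM and CHEK1.

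Other 1p36 and 11q genes on lists of known genes were set beside the members. Many of these 1p36 genes and some of the 11q genes are also neighbours counted above, so the counts are not separate evidence. Of 24 other 1p36 genes measured, 6 rose and 15 fell, with a median of -0.28. RUNX3, a RUNX transcription factor, changed most at -3.77 (SE 0.107). AJAP1, a junction protein, rose by 1.78, though its 2 probes gave 0.42 and 3.13. TNFRSF25, a death receptor, and RERE, a transcriptional corepressor, differed by -1.56 and -1.39, both called lower. After quantile normalization 7 genes of this list rose (29.2%) and 10 fell (41.7%), where 30.9% of all genes rose and 20.1% fell. Of 27 other 11q genes, 14 rose (51.9%) and 6 fell (22.2%), with a median of 0.41, and after quantile normalization 15 rose and 6 fell. The Hippo pathway coactivator YAP1 rose by 5.90 (SE 0.136) and FEZ1, a kinesin adaptor of axon growth, by 4.16 (SE 0.0488). The adhesion gene NTM fell by 2.03. The synaptic scaffold DLG2 fell by 1.89, and its 4 probes ran from -5.21 to -0.15.

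The checkpoint partners of ATM and CHEK1 moved in both directions. Of 27 measured genes of the pathway, 8 rose, 9 fell and 10 did not pass, with a median of -0.004 beside -0.09 for all genes. Both shares are near those of all genes, 29.7% higher and 28.2% lower. The split depended on the scaling, with 13 higher and 4 lower after quantile normalization, 11 and 5 with the E1A spots, and 7 and 4 with centred arrays. The shares of all genes moved as well. They were 30.9% higher and 20.1% lower after quantile normalization, 32.8% and 22.7% with the E1A spots, and 28.0% and 23.2% with centred arrays. CDC25A, a phosphatase that CHEK1 marks for destruction, rose by 1.26 (SE 0.0403), ATRIP, the partner of ATR, by 1.21 (SE 0.0396), and H2AX, the histone that ATM phosphorylates at breaks, by 1.11 (SE 0.0448). CHEK2, the effector kinase downstream of ATM, fell by 0.87 (SE 0.0284, mean of 6 probes from -1.70 to -0.63). H2AX lies on 11q and stands in that list too. ATR itself differed by -0.10 and did not pass.

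Subunits of the SWI/SNF and NuRD complexes, to which ARID1A belongs and CHD5 is related, moved in both directions. Of 33 measured, 13 rose (39.4%) and 16 fell (48.5%), where 29.7% of all genes rose and 28.2% fell. The median of the list was -0.07. After quantile normalization 15 rose and 11 fell. SMARCD3 and SMARCA2, an accessory subunit and an ATPase of SWI/SNF, rose by 4.01 (SE 0.0457) and 3.60 (SE 0.115), and DPF2, a histone reader, by 1.72, while its relative DPF3 fell by 2.90. Of 13 paralogs of the members, 3 rose (23.1%) and 7 fell (53.8%). These counts were 3 and 6 after quantile normalization, and 3 and 5 with centred arrays or with the E1A spots. CADM3 and KIF1C rose by 2.86 and 1.62, KIF1A, the neuronal relative of KIF1B, fell by 1.24, and CHEK2, given above, fell. Among 14 partners of CADM1 and KIF1B, 2 rose and 7 fell, against 3 and 4 after quantile normalization, 2 and 3 with centred arrays, and 3 and 5 with the E1A spots. XAF1, an antagonist of the apoptosis inhibitor XIAP, fell by 4.18 (SE 0.292) and the scaffold gene PALS2 rose by 2.07. The adhesion gene NECTIN3 and CASK, a membrane scaffold, fell by 0.51 and 0.48, and both had a probe above 0.

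**Figure D4:**
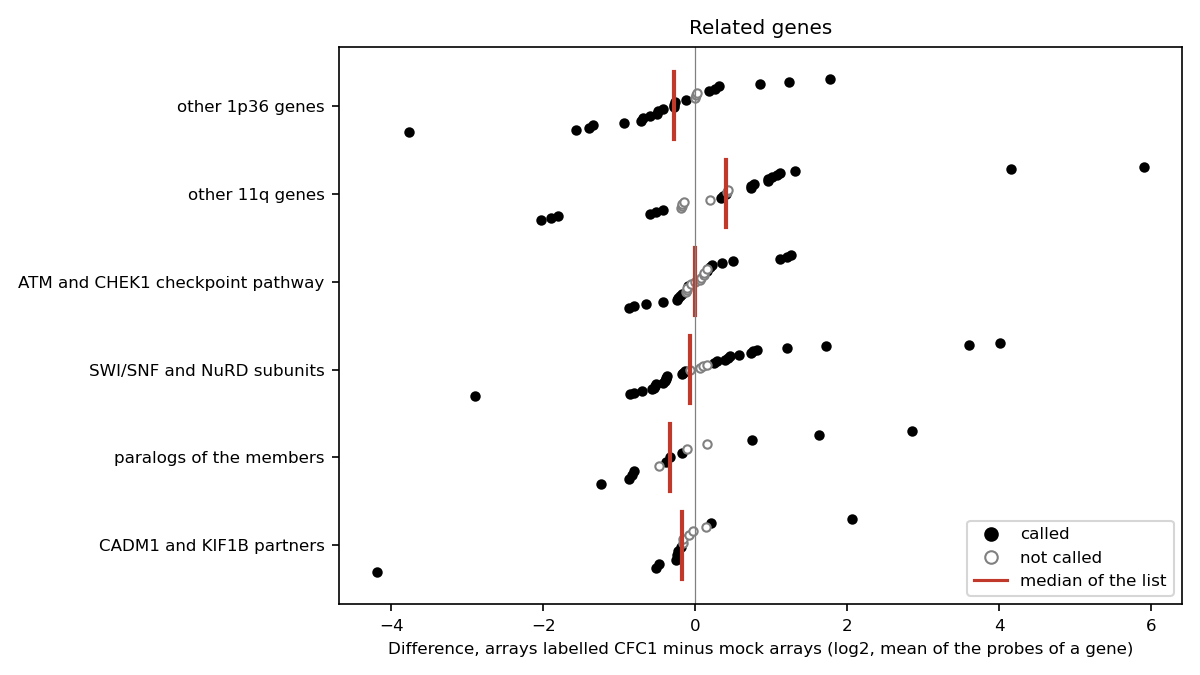
Differences (log2, arrays labelled CFC1 minus mock arrays, mean of the probes of a gene) in 6 lists of related genes, with 1 point per gene, filled where called, and a red bar at the list median. The medians run from -0.33 for the paralogs to 0.41 for the other 11q genes, and every list holds points on both sides of 0.

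Finally, the protein-coding genes whose values over the 8 arrays lay closest to each member were found by the root mean square difference in log2 units, among 16343 genes. SMARCA4 on chromosome 19 and U2SURP on chromosome 3 lay closest to ARID1A, at 0.038 and 0.042. ZCCHC9 and DCTN2 lay closest to KIF1B, both at 0.044, MAT2A and EXOC6B to ATM (0.059 and 0.060), and ANKRD11 and NPTN to CASZ1 (0.067 and 0.081). DNAJC25 and DIPK2A were closest to CADM1 (0.082 and 0.094), ZNF600 and CXCR4 to CHEK1 (0.100 and 0.106), and QNG1 and GDNF to CAMTA1 (0.102 and 0.105). MIDN and E2F2 came nearest to the mean of the CHD5 probes at 0.138 and 0.153. E2F2 alone among them lies on the chromosome of its member. The measure depends on the unstated baseline of each probe.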

How the data were processed

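The members, gene lists and tests were chosen with earlier results of these data known. RNA of 8 samples was labelled with Cyanine3 for one-color Agilent arrays, per the labels' protocols. The deposited table holds log values, read as log2, for 50739 rows and 8 arrays. The scanner software, background treatment, scaling, log base and baseline of these values are not stated in the labels or the table. No probe is above 0 in all 8 arrays or below 0 in all 8. Some read exactly 0 in 1 array and lie on 1 side of 0 in the others, as KIF1B A_23_P201287 does. Removing 140 control spots left 50599 probes, 31993 of them with 1 gene symbol in GEO's platform annotation and 18606 with none given. Symbols were updated through the RefSeq table of GRCh38.p14, which also gave the gene order. Averaging the probes of a gene gave 21524 genes.

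For CFC1 against mock (4 arrays each), limma 3.58.1 (R 4.3.3) was fitted with lmFit and eBayes and no replicate block, over all probes for the members and over all genes for other named genes. Adjusted p-values are two-sided Benjamini-Hochberg values with a threshold of 0.05. Probe pairs were compared by exact permutation (scipy 1.17.1). Named genes are the members, CFC1, 2 tested genes on either side of each member, the 2 closest protein-coding genes, and up to 4 called genes per list with the largest differences. The number of arrays limits the precision, and no background flags are given. In simulated data with 50599 probes and 200 changed, limma called 58% of the 1-unit log2 changes and 29% of the 0.5-unit ones. Among changed probes of below-median spread it called 96.2% and 60.9%, and 6 of the 93 calls were false. Far more probes passed in the real comparison (42.1%), which makes its threshold less strict, so these shares do not give its sensitivity. Alternatives were the replicate block, quantile normalization, centring, E1A control spots, array weights, a variance trend and unmoderated variances. Gene means, natural logarithms and leaving out each array were run too. Reading the values as natural logarithms only rescales all differences, so it cannot change a call.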

Additional observations from a re-analysis of the deposited data

Results flagged for a closer look

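In 4 of the 44 groups of 4 arrays (22 probes, 2 groups), a single array stood apart from the other 3 by more than Dixon's 95% critical value, where chance gives about 5% of groups. For CHD5 probe A_23_P385263, CFC1 replicate 4 read 1.016, while replicates 1 to 3 read -0.257, -0.381 and -0.268. For CAMTA1 probe A_33_P3375710, the same array read -0.075, against 0.570, 0.593 and 0.589 in the other arrays labelled CFC1. Without it the difference of that probe was still called. For CAMTA1 probe A_33_P3361102, mock replicate 3 read 1.381, against 2.126, 2.213 and 2.135 in the other mock arrays. For CAMTA1 probe A_32_P4985, mock replicate 4 read 0.998, against 0.562, 0.569 and 0.613. Both probes were called without that array as well.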

How the results depend on the processing

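Of the 15 called member probes, 10 kept their call and direction under every alternative run: 4 of KIF1B, 2 each of CAMTA1 and CADM1, and 1 each of CHD5 and CHEK1. Quantile normalization left 7 called probes of 1p, and averaging the probes of a gene left 5 called genes of 1p and 2 of 11q, where fewer features are counted. The other alternatives gave 10 to 12 called 1p probes and 3 or 4 called 11q probes. After quantile normalization 0 of 26 probe pairs passed, while 15 passed in the values as deposited (adjusted p = 0.0495, exact permutation test). That is just enough at the smallest p, so the 0 means only that fewer than 15 pairs reached it. Without any single array the count is 0 by construction, since 7 arrays allow no two-sided p under 0.057. Of the context genes, 115 of 153 were called, and 96 to 121 under the alternatives. Their balance was 46 higher and 69 lower in the values as deposited and turned to 56 and 49 after quantile normalization. All genes stood at 6388 higher and 6068 lower as deposited, and at 6660 and 4329 after quantile normalization.

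Same-numbered arrays of the groups correlated in their deviations from the group means by 0.132, 0.197, 0.095 and 0.173 over probes, and each array correlated best with its own number, a hint from the data and not the design. With the replicate number as a block, 12 probes of 1p and 4 of 11q were called, with CAMTA1 A_21_P0000181 added (adjusted p = 0.0299 in limma). The call of the CADM1 mean was lost (adjusted p = 0.076 in limma).

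The sign of some values changed, and the cause was not tested. CHD5 A_23_P385263 stood at 0.161 after quantile normalization, 0.039 with E1A spots and from -0.393 to 0.076 over the arrays left out (above 0 without mock replicate 1 or CFC1 replicate 1, 2 or 3). Over the arrays left out, CHD5 A_33_P3419321 ran from -0.004 (without mock replicate 2) to 0.332, and CADM1 A_33_P3211138 from -0.027 (without mock replicate 3) to 0.467. ATM A_23_P35916 stood at -0.005 without mock replicate 3 and -0.007 without CFC1 replicate 4, and reached 0.044. ATM A_33_P3218410 stood at 0.221 after quantile normalization, 0.037 with E1A spots, 0.099 without mock replicate 3 and 0.039 without CFC1 replicate 1, and its lowest value was -0.161. After quantile normalization CAMTA1 A_21_P0000131 and A_21_P0000181 stood at 0.009 and 0.067, THAP3 at 0.004, NPHP4 at 0.13, EXOC6B at 0.11, MAT2A at 0.071 and the ATM mean at 0.104 (0.001 with E1A spots). CIROZ ran from -0.006 (without CFC1 replicate 1) to 0.594 and NXPE4 from -0.136 (without CFC1 replicate 3) to 0.839. RNF207 stood at -0.076 and -0.003 without mock replicate 2 or 4 and at -0.055 without CFC1 replicate 1, and reached 0.384. None of the values with a changed sign passed the threshold in limma. Signal over background is unknown, so how near a dim group lay to background cannot be said.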
